A study of Mus musculus with 6 samples.

Results

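The histone genes of the mouse were followed in Hepa1-6 cells labelled Matr3 knockout and wild type. They were taken by symbol, as the protein-coding genes named H1f, H2ac, H2bc, H2bu, H2aj, H2ax, H2az, H3c, H3f3, H4c, H4f or Macroh2a, which gave 79 of the 55573 genes of the deposited table. Of these, 65 belong to the replication-dependent classes (5 linker H1, 17 H2A, 18 H2B, 12 H3 and 13 H4 genes) and 14 are variants. Bulk RNA-seq was done on 3 libraries labelled Matr3 knockout and 3 labelled wild type. Hepa1-6 is an established line from a mouse liver tumour, and both groups were grown in DMEM with fetal bovine serum. Matr3, the gene for the nuclear matrix protein matrin 3, which binds RNA and DNA, was knocked out with CRISPR/Cas9. The labels do not say whether the knockout is a clone, whether a group's libraries are separate cultures, or whether the wild-type cells had been exposed to Cas9, so p-values here reflect the spread among these libraries alone, which may be technical.

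DNA is wound around an octamer of the core histones H2A, H2B, H3 and H4, and a linker histone of the H1 family sits where the DNA enters and leaves. Replication-dependent histone genes lie in clusters and are read mainly in S phase; their mRNAs have no introns and as a rule end not in a poly(A) tail but just after a stem-loop, which the stem-loop-binding protein Slbp holds. Variant genes lie alone, mostly give spliced and polyadenylated mRNAs, and are read throughout the cell cycle; their proteins, such as H3.3, H2A.Z and macroH2A, replace the canonical histones at chosen places in chromatin.

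The 3′ stem-loop is shown first, since it is the feature of the mRNA that separates the replication-dependent genes from most variants. A search after the stop codon of the GENCODE M21 transcripts (GRCm38) for a stem of 6 bases that starts with GG and ends with CC, around a loop of 4 bases that starts with TT, found it in 44 of the 79 genes: 42 of the 65 replication-dependent genes and 2 of the 14 variants, H2ax and H1f6. G-T pairs were allowed, and the site began 21 to 58 bases after the stop codon, with a median of 31. Within 100 bases after the stop codon it was present in 22 of the 38 histone genes with that much annotated sequence, 57.9%, and in 17 of 19892 other protein-coding genes, 0.0855%. Genes whose annotated transcript ends at the stop codon or before the site cannot show it. The sites of 8 genes that the results below turn on follow, with the stem-loop in capitals and up to 5 bases on each side.
H1f2: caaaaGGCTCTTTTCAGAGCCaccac
H1f3: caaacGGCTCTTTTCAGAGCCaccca
H1f4: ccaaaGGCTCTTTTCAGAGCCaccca
H3c3: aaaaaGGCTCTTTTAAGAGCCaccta
H4c4: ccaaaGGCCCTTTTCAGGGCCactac
H4c9: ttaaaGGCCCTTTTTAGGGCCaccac
H4c17: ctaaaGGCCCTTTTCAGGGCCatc
H2ax: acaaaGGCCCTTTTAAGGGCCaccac
The most frequent form was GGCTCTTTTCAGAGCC, in 25 genes, followed by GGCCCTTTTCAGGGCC in 7 and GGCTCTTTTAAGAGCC in 6. Each of the 11 H4 sites had a stem starting GGCC or GGTC, while the linker sites shown start GGCT. The variant H2ax shares this element with the replication-dependent genes and is annotated as 822 bases longer than its stem-loop, with a poly(A) signal near the end. H1f2 and H4c9 are likewise annotated past the stem-loop, by 840 and 330 bases, each with a poly(A) signal in the last 40 bases.

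Promoters of the linker genes are shown because H1f3, H1f4 and H1f5 were several-fold higher in knockout library 2 than in any other library and H1f2 was not, and that of H3c3 because it is the called gene with the highest level among the replication-dependent genes. Each line gives the 130 bases before the RefSeq start site (GRCm38.p6), read toward the gene. Capitals mark the AC box AAACACA, an element named for linker histone promoters, CCAAT, which binds NF-Y, and TATAAA, searched on both strands.
H1f2 (chr13:23738677-23738806, plus strand): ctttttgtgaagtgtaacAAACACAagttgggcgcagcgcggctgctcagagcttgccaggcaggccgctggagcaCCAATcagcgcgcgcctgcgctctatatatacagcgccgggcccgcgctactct
H1f3 (chr13:23554902-23555031, plus strand): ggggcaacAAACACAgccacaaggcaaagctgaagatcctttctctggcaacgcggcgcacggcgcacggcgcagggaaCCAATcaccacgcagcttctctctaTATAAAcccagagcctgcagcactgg
H1f4 (chr13:23622559-23622688, minus strand): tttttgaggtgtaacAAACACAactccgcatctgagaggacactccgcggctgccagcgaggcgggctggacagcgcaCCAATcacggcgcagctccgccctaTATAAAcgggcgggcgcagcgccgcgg
H1f5 (chr13:21780626-21780755, minus strand): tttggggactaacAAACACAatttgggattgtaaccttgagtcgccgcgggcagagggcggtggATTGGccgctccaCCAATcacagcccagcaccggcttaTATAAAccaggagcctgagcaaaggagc
H3c3 (chr13:23745522-23745651, minus strand): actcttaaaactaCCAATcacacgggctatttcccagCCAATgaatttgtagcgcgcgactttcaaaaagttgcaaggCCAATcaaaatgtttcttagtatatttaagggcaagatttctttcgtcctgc
All 4 linker promoters shown hold the AC box and CCAAT, with the AC box starting 112 to 122 bases before the start site. In the full 300 bases of each promoter (250 before and 50 after the start), the AC box was found in 4 of the 5 replication-dependent linker genes, against 7.18% of 32851 RefSeq promoters of that length. CCAAT was found in 5 of the 5, against 37.4%, and TATAAA in 4 of the 5, against 13.6%. The octamer ATTTGCAT, a known element of H2B promoters, was in 6 of 15 H2B promoters and in 6 of 17 H2A promoters, against 1.74% of all. Of the 12 H4 promoters, 3 held CCAAT. A promoter sequence was matched for 71 of the 79 genes. These matches describe the letters in the windows and nothing about binding.

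Library totals ranged from 20736570 to 30794032 counts. In CPM (TMM-scaled counts relative to the library size), Matr3 mRNA measured 76.0, 86.1 and 75.3 in the knockout against 129, 125 and 134 in the wild type, so it was lower but not lost. Knockout library 2 stood apart from its group, with a chi-square per gene of 54.8 and 65.7 from knockout libraries 1 and 3, which differed by 3.41. It was nearer to wild-type library 3, at 47.8. Between the groups, distances ran from 43 (knockout 1 and wild type 1) to 74.2 (knockout 2 and wild type 1). The distances of knockout library 2 within its own group thus lie inside the range between the groups. The correlation across genes between GC content and a library's deviation was -0.27 for knockout library 2 and 0.26 for each of the other knockout libraries. Wild-type library 1 stood at 23 and 27.4 from wild-type libraries 2 and 3, which differed by 6.19. The label liver cancer cells was checked against 20 hepatocyte and hepatoma markers. Of these, 4 were at 0 in every library (Serpina1a, Serpina1b, Fgb and Ambp), Alb and Hnf4a had counts in 1 knockout library each and at most 0.0431 CPM, and Afp was at 2.14 to 5.06 CPM. The summed level of the list, 1040 to 1103 CPM in the knockout and 605 to 713 CPM in the wild type, was carried mainly by the keratin Krt8. Of 10 immune markers, 7 were at 0 in every library, and the summed level was 12.5 to 16.0 CPM in the knockout against 10.7 to 12.0 CPM. The 10 stromal and endothelial markers summed to 18.8 to 27.1 CPM against 17.2 to 19.9 CPM, mostly Col1a1.

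Histone genes rose in the knockout in 7 cases and fell in none. The 7 were the variants Macroh2a2, H2az2, H1f0 and H3f3b and the replication-dependent genes H4c17, H3c3 and H4c4. Of the 79 genes, 9 had no count in any library, 53 passed the filter on low counts and were tested, and 17 had counts but were not tested, with at most 23 counts in any library. The 7 are 13.2% of the 53, against 7.69% of all 14842 tested genes called higher and 15.2% called in either direction (edgeR quasi-likelihood, p adjusted by Benjamini-Hochberg over all tested genes, under 0.05). None of the 53 was called lower, against 7.48% of all genes. At an unadjusted p under 0.05, 15 were higher and 1, H2bc21, was lower, against 15.5% of all tested genes in each direction. The count of 7 became 9 without knockout library 2, 8 without wild-type library 1, 2 without knockout library 1, knockout library 3 or wild-type library 2, and 1 without wild-type library 3. In the same fits the 1142 higher genes of the whole table became 2286, 1041, 473, 455, 464 and 393. DESeq2 called 8 higher and 0 lower, and limma voom 7 and 0. In bulk RNA, a larger share of cells making an mRNA, such as S-phase cells, and more of it per cell cannot be told apart.

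The filter bears on these counts, since 10 of the 53 tested genes lay above its level of 0.367 CPM in every knockout library but not in every wild-type library. Of the 7 called genes, H4c17 is among these 10, and H2bc15 is another of the 10. Over all 79 genes, the mean CPM was higher in the knockout for 61, lower for 9 and equal at 0 for 9. Of the 53, the knockout libraries all lay above the wild-type libraries in 12 and all below in 4, while the groups overlapped in 37. The same held for 18.3% and 18.4% of all tested genes. The authors' deposited table calls 8 of the histone genes, each higher in the knockout. These include the 7 called here, and the other is H2bc15, with a log2 fold change of 0.64 and an adjusted p of 0.0476 in the authors' deposited table.

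**Figure D1:**
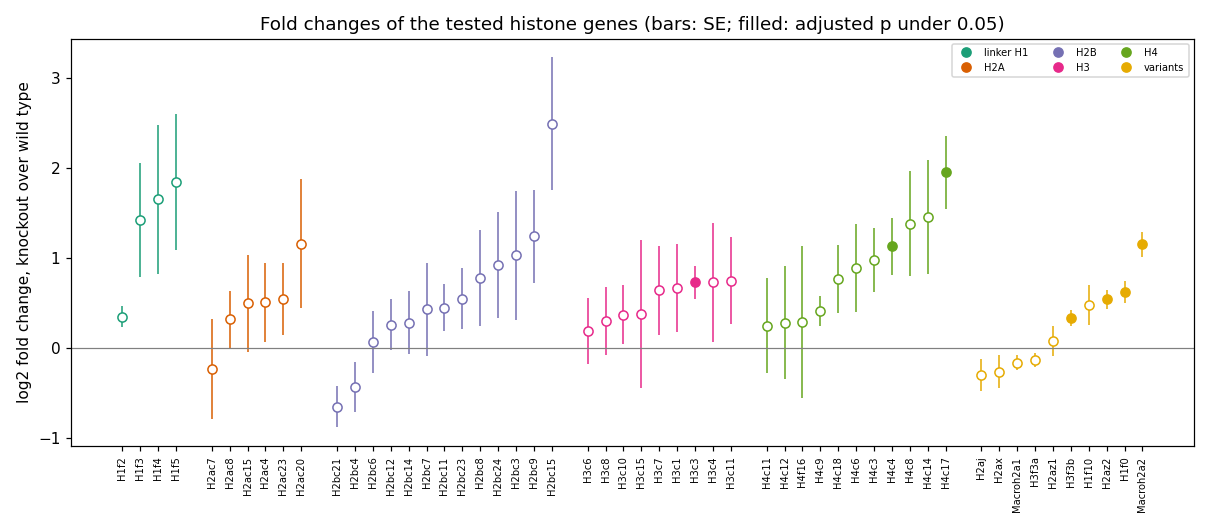
Log2 fold change of each of the 53 tested histone genes, knockout over wild type, on the vertical axis, with genes grouped by class along the horizontal axis. Points are the fitted values, bars are 1 SE, and filled points are the 7 genes with an adjusted p under 0.05, from H3f3b at 0.33 to H4c17 at 1.95; the replication-dependent genes below 0 are H2ac7, H2bc4 and H2bc21.

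Variants made up nearly all histone mRNA in these libraries. They held 95.4% to 96.7% of the histone counts, and the replication-dependent genes 3.27% to 4.57%. The linker variant H1f0, which accumulates in resting and differentiating cells, and H3f3b, which with H3f3a encodes the replacement histone H3.3, together held 71.0% to 73.2% of the histone counts in the knockout and 64.5% to 66.9% in the wild type. Histone genes took 0.272% to 0.293% of all counts in the knockout and 0.218% to 0.223% in the wild type, so neither share overlapped between the groups. Per length, the mean level over the 6 libraries was 433 FPKM for H1f0 and 288 FPKM for H3f3b. H2ax followed at 70.4 FPKM, H3f3a at 68.7, H2az2 at 56.5, H2az1 at 27.2, H2aj at 19.2, H1f10 at 18.3, Macroh2a1 at 17.6 and Macroh2a2 at 4.56 FPKM. The ranges over libraries of H2ax and H3f3a overlap, as do those of H2aj, H1f10 and Macroh2a1. Library preparation used an mRNA-seq kit; whether it selects poly(A) tails is not stated in the labels, so the low share of genes whose mRNAs lack a tail says nothing on the amount of their RNA in the cell.

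**Figure D2:**
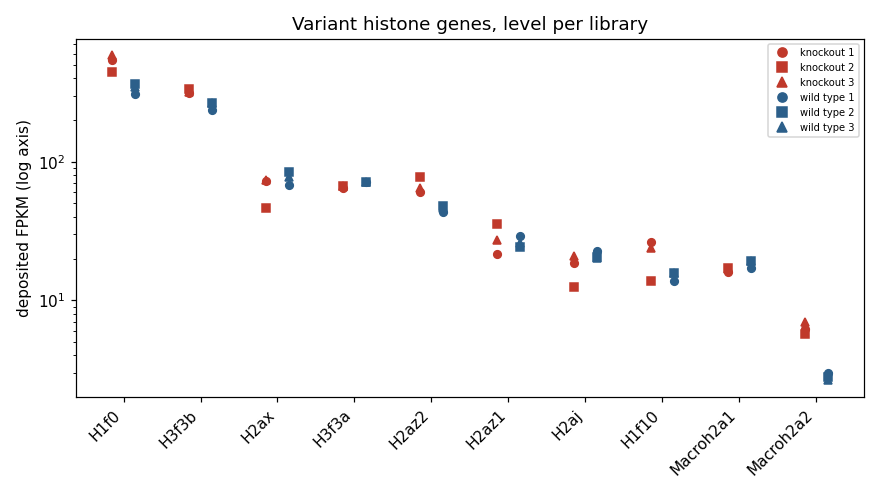
Deposited FPKM on a log axis for the 10 tested variant genes, in order of mean level, with knockout libraries in red and wild-type libraries in blue. The knockout points of H1f0, H3f3b, H2az2 and Macroh2a2 lie above all wild-type points, and Macroh2a2 is the lowest of the 10 in both groups.

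H1f0 (ENSMUSG00000096210; chromosome 15, 78912650 to 78914704, plus strand) measured 1124, 908 and 1205 CPM in the knockout against 650, 747 and 716 CPM in the wild type. Every knockout library lay above every wild-type library, with knockout library 2 nearest to them. The fold change was 1.53 (log2 0.62, SE 0.124, edgeR quasi-likelihood adjusted p = 0.0150). Without knockout library 1, knockout library 3 or wild-type library 3 it was no longer called, at adjusted p from 0.0622 to 0.0656. The other tested linker variant, H1f10, was at 32.4, 16.7 and 28.9 CPM in the knockout and 17.2, 19.3 and 19.3 CPM in the wild type. Here knockout library 2 was the lowest of all 6, and the groups overlapped (log2 0.48, SE 0.222, adjusted p = 0.183). H1f10 was called in 5 of its 17 other settings. With 1 library left out, its log2 fold change ran from 0.32 to 0.72 and its edgeR adjusted p from 0.00215 to 0.435. The germ-cell linker genes H1f6, H1f7, H1f8 and H1f9 had at most 6 counts in any library and were not tested.

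H3f3b (ENSMUSG00000016559; chromosome 11, 115912738 to 115918788, minus strand) measured 929, 990 and 949 CPM in the knockout and 714, 791 and 783 CPM in the wild type, a narrow range within each group. The groups did not overlap, and the gene rose 1.25-fold (log2 0.33, SE 0.0885, edgeR adjusted p = 0.0419). This call is the most easily lost of the variants: it was lost when any library but knockout 2 and wild type 1 was left out (0.108 to 0.143) and without the filter on low counts (0.119). H3f3a, whose protein is the same histone H3.3, was at 228, 233 and 234 CPM in the knockout and 255, 252 and 250 CPM in the wild type. Its knockout libraries all lay below the wild type, by a small amount that was not called (log2 -0.13, SE 0.0778, adjusted p = 0.314).

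H2az2 (ENSMUSG00000041126; chromosome 11, 6377229 to 6394443, minus strand), 1 of the pair of genes for the promoter and enhancer histone H2A.Z, was at 98.7, 125 and 105 CPM in the knockout and 72.6, 78.3 and 75.1 CPM in the wild type. All knockout libraries were above all wild-type libraries, with library 2 the highest. It rose 1.46-fold (log2 0.54, SE 0.107, edgeR adjusted p = 0.0140), and the call ended without wild-type library 2 or 3 (0.0515 and 0.0653). H2az1, the other gene of the pair, was at 38.6, 62.5 and 48.5 CPM in the knockout and 52.6, 42.9 and 45.9 CPM in the wild type. Its groups overlapped widely, with knockout libraries at both the top and the bottom (log2 0.08, SE 0.170, adjusted p = 0.772).

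Macroh2a2 (ENSMUSG00000020086; chromosome 10, 61574444 to 61619926, minus strand), which encodes a histone with a large globular macro domain found in silent chromatin, showed the clearest difference among the variants. It was at 13.7, 12.3 and 15.1 CPM in the knockout and 6.67, 6.14 and 5.75 CPM in the wild type. The lowest knockout library was well above the highest wild-type library, and the gene rose 2.21-fold (log2 1.15, SE 0.138, edgeR adjusted p = 0.0024). The call held in each of the 17 other settings in which the gene was fitted, at adjusted p up to 0.0168. The gene's end overlaps Aifm2, on the opposite strand, over 596 bases; strand-specific counting is not stated. Aifm2 was at 25.2, 22.1 and 23.3 CPM in the knockout and 25.3, 21.1 and 25.7 CPM in the wild type, with overlapping groups. Macroh2a1, the broadly made relative, was at 110, 117 and 115 CPM in the knockout and 120, 130 and 131 CPM in the wild type. Its knockout libraries lay just below the wild type (log2 -0.16, SE 0.0834, adjusted p = 0.242).

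In 3 of 4 pairs of related variants, the ratio between the genes did not overlap between the groups. The FPKM of Macroh2a2 divided by that of Macroh2a1 was 0.389, 0.329 and 0.410 in the knockout and 0.175, 0.148 and 0.137 in the wild type, means of 0.376 ± 0.0421 and 0.153 ± 0.0196 (SD, n = 3 each). Macroh2a1 remained the higher gene in every library. The ratio of H3f3b to H3f3a was 4.81, 5.02 and 4.79 in the knockout and 3.30, 3.69 and 3.69 in the wild type. That of H2az2 to H2az1 was 2.78, 2.18 and 2.35 against 1.50, 1.99 and 1.78, with knockout library 2 closest to the wild type. The ratio of H1f0 to H1f10 overlapped, at 20.6 to 32.1 in the knockout and 22.0 to 22.9 in the wild type. These ratios are descriptions within a library and carry no test. Macroh2a2, H3f3b and H2az2 were themselves called and without overlap, so the 3 ratios in part restate those calls. Single genes did not overlap between the groups in 36.6% of all tested genes, and no such share was computed for ratios.

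**Figure D3:**
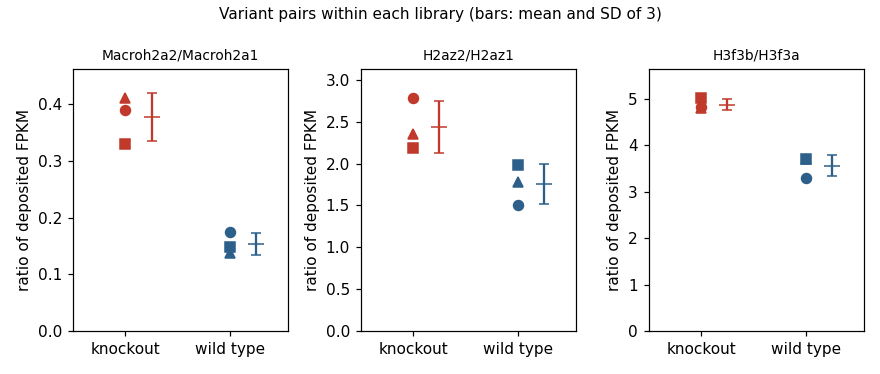
Ratio of deposited FPKM within each library for 3 pairs of related variants, Macroh2a2 over Macroh2a1, H2az2 over H2az1 and H3f3b over H3f3a, on linear axes from 0. Circles, squares and triangles are libraries 1, 2 and 3, and bars are the mean and SD of 3 libraries; in each pair all knockout ratios exceed all wild-type ratios.

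The remaining tested variants did not pass the test. H2ax, whose protein is phosphorylated at DNA breaks, was at 101, 64.0 and 102 CPM in the knockout and 95.3, 117 and 107 CPM in the wild type, so that only knockout library 2 lay outside the wild-type range (log2 -0.26, SE 0.178, adjusted p = 0.353). H2aj, an H2A variant reported in senescent cells, was at 34.1, 22.6 and 38.2 CPM against 42.3, 37.6 and 37.2 CPM, with knockout libraries 1 and 2 below the wild-type range and library 3 inside it (log2 -0.30, adjusted p = 0.294).

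The replication-dependent genes were low throughout but their sum was higher in the knockout. Summed over the 65 genes, they were at 99.7, 122 and 104 CPM in the knockout and 89.1, 77.4 and 73.4 CPM in the wild type, 109 ± 11.9 against 80.0 ± 8.16 CPM (SD, n = 3 each), a ratio of 1.36, or 1.27 without knockout library 2. The groups did not overlap. Much of the sum came from H1f2 and H4c9, neither of them called. The other 63 genes summed to 58.7, 84.4 and 58.7 CPM in the knockout and 57.8, 44.8 and 41.7 CPM in the wild type. Their ratio was 1.40, or 1.22 without knockout library 2, and knockout libraries 1 and 3 lay barely above wild-type library 1. The clustered genes lie in 2 groups on chromosome 13 and in a cluster on chromosome 3. The 23 genes of the chromosome 13 group that holds H1f5 and H4c17 summed to 42.8, 42.6 and 44.3 CPM in the knockout and 32.0, 30.7 and 26.6 CPM in the wild type, and the 30 genes of the group that holds H1f2, H3c3 and H4c4 to 48.6, 66.4 and 52.6 CPM against 41.3, 38.1 and 38.3 CPM. In neither did the libraries overlap between knockout and wild type. The 10 genes of the chromosome 3 cluster did overlap, at 7.75, 12.7 and 6.82 CPM against 15.2, 8.24 and 8.45 CPM, and were highest in wild-type library 1.

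Few genes of any class passed the test: 0 of 4 tested linker genes, 0 of 6 H2A, 0 of 13 H2B, 1 of 9 H3 and 2 of 11 H4 genes were called. Together 3 of the 43 tested replication-dependent genes were called, near the 7.69% of all tested genes called higher. Of the 10 tested variants, 4 were called higher. The class sums differed in whether they separated the groups. Summed linker genes were at 22.3, 34.6 and 26.8 CPM in the knockout and 18.2, 19.5 and 20.9 CPM in the wild type, without overlap, a ratio of 1.43, or 1.26 without knockout library 2. Summed H4 was at 30.3, 30.9 and 31.9 CPM in the knockout and 23.5, 20.7 and 16.7 CPM in the wild type, a ratio of 1.53 with no overlap, and the same ratio without knockout library 2. Summed H2A was at 10.9, 8.94 and 10.1 CPM against 5.74, 7.07 and 7.53 CPM, also without overlap. Summed H2B overlapped, at 20.9, 22.9 and 19.9 CPM against 26.0, 17.7 and 17.8 CPM, and so did summed H3, at 15.3, 24.9 and 15.4 CPM against 15.7, 12.5 and 10.4 CPM.

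**Figure D4:**
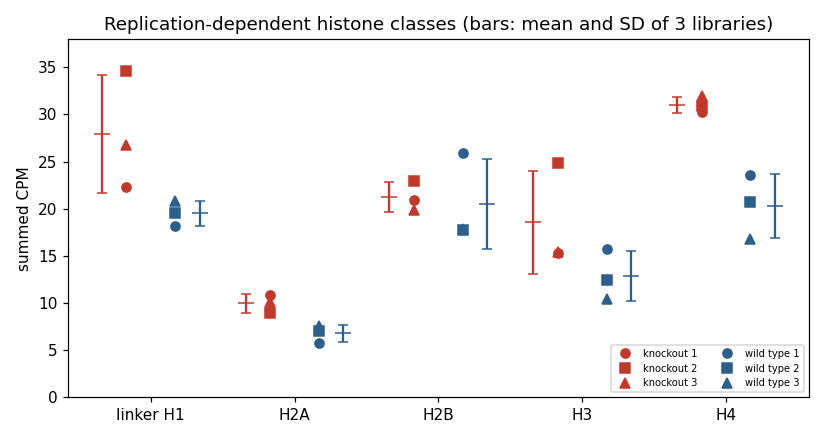
Summed CPM of the replication-dependent genes of each class, with knockout libraries in red and wild-type libraries in blue; bars are the mean and SD of 3 libraries. Linker, H2A and H4 sums do not overlap between the groups, while in H3 and linker genes knockout library 2 (square) stands well above the other knockout libraries.

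Among the linker genes, H1f2 carried most of the level, and the others were highest in knockout library 2. H1f2 (chromosome 13), at a mean of 13 FPKM the highest replication-dependent linker gene, was at 21.0, 23.3 and 23.9 CPM in the knockout and 16.1, 18.0 and 19.4 CPM in the wild type. The groups did not overlap, but the difference was not called (log2 0.35, SE 0.114, edgeR adjusted p = 0.0754). H1f4 had 11, 138 and 22 counts in the knockout libraries and 20, 15 and 9 in the wild type, or 0.474, 4.40 and 0.774 CPM against 0.933, 0.562 and 0.342 CPM. Most of its knockout signal came from library 2, and the other knockout libraries lay within the wild-type range. H1f3, at 0.560, 3.64 and 1.16 CPM against 0.747, 0.636 and 0.647 CPM, and H1f5, at 0.258, 2.81 and 0.950 CPM against 0.420, 0.299 and 0.419 CPM, were also highest there, and their knockout library 3 lay above the wild-type range too, while library 1 lay below it. None of H1f4, H1f3 and H1f5 was called (log2 1.65, 1.42 and 1.84, adjusted p = 0.215, 0.170 and 0.140), and without knockout library 2 their log2 fold changes were 0.06, 0.36 and 0.70. H1f1 was not tested, with 14 counts in knockout library 2, 1 in wild-type library 3 and 0 elsewhere. H1f4 overlaps H2bc6 on the same strand over 496 bases, so their reads may have been divided between them in ways the counts do not show. H2bc6 itself, at 1.29, 1.44 and 1.72 CPM against 2.10, 1.12 and 1.07 CPM, was highest in wild-type library 1.

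No H2A gene was called, and log2 fold changes ran from -0.23 for H2ac7 to 1.16 for H2ac20, which was at 0.11 without knockout library 2. H2ac23, the highest by mean FPKM at 5.19, was at 3.70, 2.30 and 2.92 CPM in the knockout and 0.887, 2.40 and 2.78 CPM in the wild type, with wild-type library 1 far below the rest (log2 0.54, adjusted p = 0.397). H2ac8 was at 2.63, 1.40 and 2.99 CPM against 1.91, 1.98 and 1.71 CPM, and here knockout library 2 was the lowest of the 6 (log2 0.32, adjusted p = 0.535). H2ac4, at 0.732, 1.37 and 0.633 CPM against 0.887, 0.562 and 0.495 CPM, and H2ac20, at 0.345, 1.66 and 0.457 CPM against 0.653, 0.187 and 0.304 CPM, were highest in knockout library 2, while H2ac15, at 0.818, 0.383 and 0.457 CPM against 0.187, 0.337 and 0.609 CPM, was not. Another 3 H2A genes, H2ac13, H2ac11 and H2ac24, had up to 20 counts in a library and did not pass the filter. H2ac13 had 20, 7 and 15 counts in the knockout and 4, 3 and 1 in the wild type.

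H2B genes spanned the widest range of log2 fold change of the 5 classes, from -0.65 to 2.49. H2bc21, which lies in the chromosome 3 cluster and shares no 75-base window with another histone gene, was at 6.37, 5.14 and 4.82 CPM in the knockout and 11.5, 7.0 and 7.19 CPM in the wild type. All knockout libraries lay below the wild type, with wild-type library 1 the highest, and the fall was not called (log2 -0.65, SE 0.229, edgeR adjusted p = 0.0915). H2bc15, at the other end, was at 0.775, 1.05 and 0.528 CPM against 0.233, 0 and 0.190 CPM. It was not called here (log2 2.49, SE 0.737, adjusted p = 0.0559) but passed in 6 of the 16 other settings that could be fitted. The highest H2B gene by FPKM, H2bc11, was at 3.19, 2.14 and 3.87 CPM against 2.29, 2.32 and 2.13 CPM, with knockout library 2 at the lower edge of the wild type (log2 0.45, adjusted p = 0.295). H2bc12 was at 1.94, 1.47 and 1.69 CPM against 1.68, 1.46 and 1.10 CPM, overlapping. H2bc9, at 0.947, 1.60 and 0.563 CPM against 0.653, 0.262 and 0.419 CPM, and H2bc8, at 0.646, 2.27 and 0.704 CPM against 0.653, 0.824 and 0.647 CPM, were again highest in knockout library 2. The fold change of H2bc8 turned from 0.78 to -0.07 on the log2 scale without that library. H2bc23 (1.46, 2.52 and 1.97 CPM against 1.87, 1.01 and 1.22 CPM), H2bc3 (0.904, 1.05 and 0.281 against 0.747, 0.112 and 0.266 CPM) and H2bc24 (0.345, 0.415 and 0.633 against 0.373, 0.299 and 0.0761 CPM) overlapped between the groups, at adjusted p from 0.308 to 0.367. The other 4 tested H2B genes, H2bc4, H2bc6, H2bc7 and H2bc14, had log2 fold changes from -0.43 to 0.43. Of these, H2bc4 was at 1.077, 1.755 and 1.548 CPM in the knockout and 1.913, 1.984 and 2.055 CPM in the wild type. All its knockout libraries lay below the wild type, and it was not called (log2 -0.43, edgeR adjusted p = 0.325).

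H3c3 was the only H3 gene called. H3c3 (ENSMUSG00000069310; chromosome 13, 23928956 to 23929585, minus strand) measured 6.46, 5.39 and 7.28 CPM in the knockout and 4.20, 3.89 and 3.46 CPM in the wild type, with no overlap and with knockout library 2 the lowest of its group. It rose 1.66-fold (log2 0.73, SE 0.182, edgeR adjusted p = 0.0319). The call was lost when any library but knockout 2 and wild type 1 was left out (0.0951 to 0.126). H3c4, with the same log2 fold change of 0.73, had 0.431, 2.33 and 0.528 CPM against 0.933, 0.562 and 0.533 CPM, and its value turned to -0.47 without knockout library 2. H3c11 was at 1.08, 2.84 and 1.13 CPM against 1.49, 0.749 and 0.799 CPM, H3c10 at 2.15, 3.57 and 1.90 CPM against 1.91, 2.51 and 1.48 CPM. Both were highest in knockout library 2 and overlapped otherwise. H3c7 was at 0.517, 1.18 and 0.950 CPM against 0.700, 0.749 and 0.266 CPM, and H3c1 at 0.560, 1.21 and 0.739 CPM against 0.280, 0.487 and 0.799 CPM. H3c8 was at 2.37, 2.49 and 1.20 CPM against 2.29, 1.31 and 1.33 CPM. Each was highest in knockout library 2, H3c8 only just above knockout library 1 and wild-type library 1. H3c6 was highest there too, at 1.79 CPM. H3c15, in the chromosome 3 cluster, was highest in knockout library 2 at 3.35 CPM and next in wild-type library 1 at 2.15 CPM, with the other libraries from 0.457 to 0.674 CPM, and its log2 fold change turned from 0.38 to -1.20 without knockout library 2. H3c3 was thus the exception, since 8 of the 9 tested H3 genes had their highest value in knockout library 2.

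H4 genes gave 2 of the 3 calls among the replication-dependent genes. H4c17 (ENSMUSG00000069306; chromosome 13, 21995916 to 21996317, plus strand) measured 1.12, 1.50 and 1.06 CPM in the knockout and 0.467, 0.262 and 0.228 CPM in the wild type, a 3.87-fold rise with no overlap (log2 1.95, SE 0.409, edgeR adjusted p = 0.0171). Wild-type libraries 2 and 3 lay under the filter level of 0.367 CPM, so the gene was tested because of its knockout libraries. Here too the call was lost on leaving out any library but knockout 2 and wild type 1 (0.0574 to 0.0863). Of its 75-base windows, 89.0% also occur in another histone gene, so its reads may belong in part to other H4 genes. H4c4 (ENSMUSG00000061482; chromosome 13, 23765581 to 23766718, plus strand) measured 2.02, 2.94 and 2.46 CPM against 1.40, 1.24 and 0.761 CPM and shares 3.7% of its windows. It rose 2.20-fold without overlap (log2 1.13, SE 0.313, adjusted p = 0.0448), a call that held only on leaving out wild type 1 (the other omissions gave 0.0726 to 0.143).

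Most of the H4 level came from H4c9, at a mean of 22.4 FPKM the highest of all replication-dependent genes. It was at 19.9, 14.5 and 21.5 CPM in the knockout and 15.2, 14.6 and 12.3 CPM in the wild type, with knockout library 2 inside the wild-type range, and was not called (log2 0.41, SE 0.168, adjusted p = 0.140). H4c9 was called in 3 of its 17 other settings. With 1 library left out, its log2 fold change ran from 0.32 to 0.57 and its edgeR adjusted p from 0.0106 to 0.354. H4c3, at 1.94, 1.31 and 1.02 CPM against 0.793, 0.636 and 0.723 CPM, H4c8, at 1.21, 0.989 and 1.09 CPM against 0.840, 0.337 and 0.114 CPM, and H4c18, at 1.77, 3.80 and 1.69 CPM against 1.40, 1.68 and 1.18 CPM, did not overlap between the groups. None of the 3 was called (adjusted p = 0.102, 0.150 and 0.205). H4c14, at 0.517, 2.46 and 1.09 CPM against 0.840, 0.374 and 0.304 CPM, and H4c6, at 0.517, 0.894 and 0.387 CPM against 0.327, 0.225 and 0.419 CPM, overlapped. The other 3 tested H4 genes, H4c11, H4c12 and H4f16, had log2 fold changes from 0.25 to 0.29.

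Values of single replication-dependent genes are uncertain because many share sequence. Of the 53 tested histone genes, 16 share over 50% of their 75-base windows with another histone gene, as H2bc23 (96.1%), H3c10 (93.5%) and H2ac23 (93.1%) do, and how the authors' counting treated reads with several matches is not stated. Another 13 share none, among them H1f0, H3f3b, H2az2, Macroh2a2, H1f5 and H2bc21.

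Knockout library 2 held the highest value for 25 of the 43 tested replication-dependent genes, while 21.1% of all tested genes were highest there. The other 18 were highest in knockout library 1 (6 genes), knockout library 3 (7), wild-type library 1 (3) and wild-type library 3 (2). These counts are over genes that passed the filter, which some did only through the knockout libraries. Relative to the wild-type mean, 38 of the 43 were above it in knockout library 2, with a median ratio of 1.85. In knockout library 1, 28 were above it, with a median of 1.18, and in knockout library 3, 31, with a median of 1.26. In 13 of the 43, knockout library 2 was at least 2-fold above the mean of the other knockout libraries, against 2.10% of all tested genes. All 13 have a mean under 5 CPM, as 39 of the 43 do, and among all tested genes under that level the share was 6.74%, against 33.3% of the 39. The largest excess was 7.06-fold for H1f4, followed by 6.88-fold for H3c15, 4.86-fold for H3c4, 4.65-fold for H1f5, 4.23-fold for H1f3 and 4.14-fold for H2ac20.

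None of these 13 genes was called. H1f2, H2ac23, H2bc11, H3c3 and H4c9, each the highest of its class by FPKM, were not among them, and in 8 of the 43 genes library 2 was the lowest knockout library. The 31 genes with a stem-loop and no poly(A) signal at their annotated end summed to 33.1, 50.7 and 34.1 CPM in the knockout and 26.6, 23.4 and 21.9 CPM in the wild type. The groups did not overlap, and the ratio of the means was 1.64, or 1.40 without knockout library 2. The 13 genes with both a stem-loop and a poly(A) signal summed to 148, 109 and 155 CPM against 134, 155 and 143 CPM, with knockout library 2 the lowest. The variant H2ax gives most of this sum, at 101, 64.0 and 102 CPM against 95.3, 117 and 107 CPM. The next highest of the 13, H1f2 and H4c9, had higher means in the knockout, 22.7 against 17.9 CPM and 18.6 against 14.1 CPM. The sums therefore do not compare the types of 3′ end.

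Of 5 classes of non-coding RNA, 3 were highest in knockout library 2 and the others in wild-type library 1. Genes annotated as rRNA summed to 19, 192 and 28.0 CPM in knockout libraries 1, 2 and 3 and to 145, 46.5 and 37.5 CPM in the wild type. Mitochondrial rRNA was at 7.71, 32.4 and 7.07 CPM against 22.7, 17.3 and 14.7 CPM, and the class misc_RNA at 6.03, 38.9 and 4.47 CPM against 24.6, 5.05 and 6.24 CPM. In these 3 classes wild-type library 1 was next after knockout library 2, and the wild-type library with the highest replication-dependent sum was also library 1. The snoRNA class was at 33.2, 32.1 and 31.5 CPM against 119, 34.1 and 43.5 CPM, and the snRNA class at 9.65, 15.3 and 11.8 CPM against 37.7, 9.88 and 12.4 CPM. The part of rRNA content or depth in the histone values of these libraries was not tested. With each library's trend with GC content removed, H1f3, H1f4 and H1f5 had log2 fold changes of 1.52, 1.69 and 1.90, against 1.42, 1.65 and 1.84 with the trend left in, and none was called either way. The knockout excess of the summed replication-dependent genes, at 1.27, and of summed H4, at 1.53, was present without library 2, as given above.

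**Figure D5:**
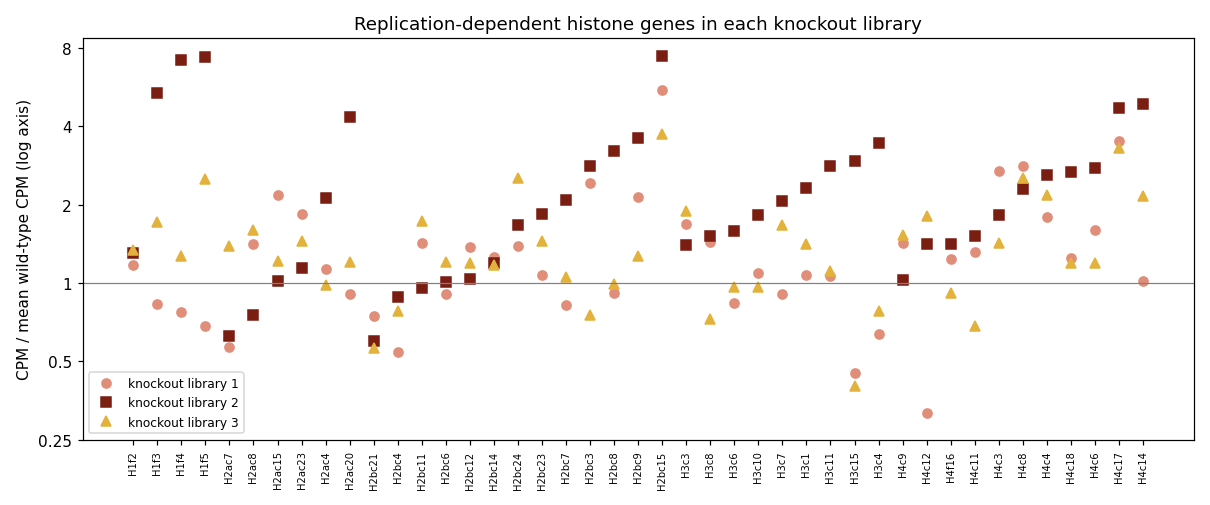
CPM of each tested replication-dependent gene in each knockout library, divided by the wild-type mean, on a log axis, with genes ordered by class. Dark squares are knockout library 2, which exceeds the other knockout libraries by the most in H1f3, H1f4, H1f5, H2ac20, H3c4 and H3c15. In H3c3 and H4c9 it is the lowest of the 3, and in H1f2 the 3 libraries lie close together.

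The genes that process and handle histone mRNA changed in both directions. Of 24 genes of histone mRNA processing and decay, 3 rose and 3 fell (edgeR adjusted p under 0.05), with a median log2 fold change of -0.09 against -0.02 over all tested genes. Those that rose were Mif4gd, a partner of Slbp in translation (log2 fold change 0.62, adjusted p = 0.0152), and the Sm-ring genes Lsm10, specific to the U7 particle that cuts histone mRNAs (0.54, 0.0199), and Snrpf (0.72, 0.0201). Lsm1 (-0.43, 0.0241), of the ring that marks mRNAs for decay, the cap-binding gene Ncbp1 (-0.52, 0.0328) and the decay helicase gene Upf1 (-0.37, 0.0443) fell. Without knockout library 2 the counts were 5 and 7, and without any library but knockout 2 and wild type 1 they were at most 1 and 0. With no filter on low counts, Lsm1 and Upf1 were not called, and Upf1 was not with library totals as the scaling. Slbp was at 107, 121 and 105 CPM in the knockout and 115, 117 and 119 CPM in the wild type, overlapping (log2 -0.07, adjusted p = 0.617). Npat, the cyclin E-dependent activator of histone gene transcription, was at 39.6, 61.8 and 38.6 CPM against 61.6, 60.5 and 69.9 CPM. Knockout libraries 1 and 3 were low and knockout library 2 lay in the wild-type range, and the difference was not called (log2 -0.45, adjusted p = 0.126). Npat was called in 3 of its 17 other settings. With 1 library left out, its log2 fold change ran from -0.71 to -0.31 and its edgeR adjusted p from 0.00146 to 0.387.

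The histone chaperone and exchange genes called in the main fit all fell. Of 32, 5 fell and 0 rose, against 7.48% and 7.69% of all tested genes called lower and higher. Their median log2 fold change was -0.10. At an unadjusted p under 0.05, 11 were lower and 1 higher, against 15.5% of all tested genes in each direction. Ipo4 (log2 fold change -0.63, edgeR adjusted p = 0.00334), an importer of H3 and H4, Ncl (-0.65, 0.00628), which encodes nucleolin, Nasp (-0.44, 0.0118), a chaperone of soluble H3 and H4, and Supt16 (-0.34, 0.0420), of the FACT complex, had the smallest p-values, and the fifth was Nap1l1 (-0.31, 0.0475), a chaperone of H2A and H2B. The 5 became 8 without knockout library 2 and 2 without any library but knockout 2 and wild type 1. Nasp, Supt16 and Nap1l1 were not called with no filter or after removal of the GC trends. Nasp was at 178, 171 and 183 CPM in the knockout and 249, 235 and 235 CPM in the wild type, well apart.

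Of 30 genes of S phase, 1 rose and 2 fell, with a median log2 fold change of -0.01. Rfc4, of the clamp loader, rose (log2 fold change 0.44, edgeR adjusted p = 0.0172), and the cyclin E genes Ccne1 (-0.66, 0.00357) and Ccne2 (-0.72, 0.0127) fell. Without knockout library 2, 4 rose; without any library but knockout 2 and wild type 1, none did, Rfc4 included, and 1 or 2 fell. Pcna, the sliding clamp, was at 426, 351 and 440 CPM in the knockout and 373, 397 and 387 CPM in the wild type, overlapping. Of 16 regulators of histone gene transcription, 2 rose and 4 fell, with a median of -0.15. Nfyb, a subunit of the CCAAT-binding factor NF-Y, rose (log2 fold change 0.40, adjusted p = 0.0198), as did the pocket protein gene Rbl1 (0.37, 0.0494). Ccne1, Cdc25a (-0.54, 0.00996), Pou2f1, the octamer-binding factor (-0.35, 0.0271), and E2f4 (-0.34, 0.0323) fell. Without any library but knockout 2 and wild type 1, these counts were 0 higher and 1 or 2 lower, and without wild type 1 the 2 higher became 1. Pou2f1 and E2f4 were not called with no filter or after removal of the GC trends, nor Rbl1 with RLE size factors. The shares of these lists called, like those of the histone genes, stand beside 7.69% of all tested genes called higher and 7.48% called lower.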

How the data were processed

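Gene expression was measured in 3 knockout and 3 wild-type libraries, grouped by the sample titles and genotype labels. The authors deposited a single table, whose raw counts per gene are whole numbers and were used as deposited. The FPKM values, deposited by the authors, were used for levels between genes. The deposited signal (a mean of scaled counts per group), log2 fold changes and p-values come from the authors' own test, with an unnamed tool. GRCm38 and mm10 are named in the submitters' processing notes. Coordinates in the table differ from those of GRCm38 and are given as deposited, in a release that could not be settled.

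Counts were fitted over all genes in R 4.3.3 with edgeR 4.0.16: filterByExpr, TMM scaling, and the quasi-likelihood F test of knockout against wild type without covariates, adjusted by Benjamini-Hochberg over the 14842 tested genes, with p-values called under 0.05. CPM uses TMM-adjusted totals, and SE follows from the F statistic. The genes and the 4 pathway lists were chosen with earlier results of these data known. Values in every library are given for tested histone genes that were called, had a log2 fold change of at least 0.5 in size, or were among the 3 highest of their class by FPKM, and for a few others chosen after their values were seen. Of each list, the called genes with the smallest p-values are named, and always Slbp and Npat; Pcna was added after its values were seen. The fits were tested on simulated counts. Alternatives were RLE size factors, library totals, no filter, protein-coding genes only, a mean of at least 1 CPM, a replicate block, DESeq2 1.42.0, limma voom 3.58.1, each library left out, and an adjusted p of 0.01. Leaving out both divergent libraries and removing each library's GC trend were chosen after seeing the data.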

Additional observations from a re-analysis of the deposited data

How the results depend on the processing

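The 7 histone genes called higher became 13 with no filter on low counts, 15 without both divergent libraries (knockout 2 and wild type 1), 1 at an adjusted p of 0.01, and 1 to 9 with a library left out; the 0 called lower became 1 with no filter, 3 without both libraries and 1 with the replicate block and GC removal, and stayed 0 with any single library left out. Over all genes, the 1142 higher and 1110 lower became 3750 and 3806 without both libraries, 347 and 374 at 0.01, and 393 to 2286 and 377 to 2009 with a library left out. For histone mRNA processing, 3 higher and 3 lower became 7 and 11 without both libraries, 0 and 0 at 0.01, and 0 to 5 and 0 to 7 with a library left out. For chaperones, 0 higher and 5 lower became 1 and 3 with no filter, 4 and 14 without both libraries, 3 lower with GC removal, with or without the block, 2 lower at 0.01, and 0 to 1 and 2 to 8 with a library left out. For S phase, 1 higher and 2 lower became 3 higher with no filter, 2 higher with DESeq2 or GC removal, 6 and 14 without both libraries, 0 and 1 at 0.01, and 0 to 4 and 1 to 2 with a library left out. For regulators, 2 higher and 4 lower became 1 higher with RLE, 2 lower with GC removal, 7 lower without both libraries, 0 and 2 at 0.01, and 0 to 2 and 1 to 5 with a library left out. The cause of these shifts was not tested.

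Replicate numbers did not pair the libraries: same-numbered deviations correlated at 0.17, -0.03 and -0.20, and knockout library 2 correlated best with wild-type library 3, at 0.28. With the replicate block, 4 histone genes were called higher, and H3c3 (adjusted p = 0.0685), H4c4 (0.0706) and H3f3b (0.105) were not. The block gave 1 lower for processing, 3 lower for chaperones, and 1 higher and 2 lower for regulators.

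Of 1249 values for 75 single genes under the alternatives, 1084 kept direction and side of the threshold, 111 lost the call, 33 gained it and 21 changed sign, all of genes not called. The log2 fold changes that changed sign with a library left out ranged as follows: H2ac7 -0.72 to 0.24, H2bc8 -0.07 to 1.09, H2bc7 -0.07 to 0.69, H2bc6 -0.10 to 0.46, H3c6 -0.14 to 0.38, H3c15 -1.20 to 1.21, H3c4 -0.47 to 1.12, H4c12 -0.13 to 0.74, H4c11 -0.06 to 0.58, H4f16 -0.31 to 1.02 and H2az1 -0.11 to 0.27; H2bc8, H2bc7, H3c6, H3c15, H3c4 and H2az1 turned without knockout library 2. Without both libraries, H2bc8 (-0.12), H3c15 (-0.40), H3c4 (-0.18) and H2az1 (-0.02) turned, and H2bc6 was at 0.47. GC removal, with or without the block, turned Slbp (0.01). The median log2 fold change of all genes moved from -0.02 to -0.08 with no filter and by less elsewhere. The summed replication-dependent genes had a ratio of 1.27 to 1.44 with a library left out, and summed H2B one of 0.972 to 1.20. Most replication-dependent genes lie under 5 CPM, where counts limit the precision.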
